A study of Mus musculus with 4 samples.

Results

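The colony-stimulating factor and IL-10 receptor genes are the 8 genes Csf1, Csf1r, Csf2ra, Csf2rb, Csf3r, Spi1, Il10ra and Il10rb, which were taken by their symbols from the 24346 genes listed for each liver library. All 8 were listed, and all 8 passed the filter on low values that left 12299 genes for testing. The libraries came from whole livers of wild-type male C57BL/6 mice that had eaten a steatohepatitis-inducing (NASH) diet, rich in fat, cholesterol and sucrose with added bile salt, for 3 weeks. The study fed this diet to mice from 8 weeks of age. In the control group (n = 2) the diet held no 7-ketocholesterol, and in the 7KC group (n = 2) it held this oxidized form of cholesterol. Both groups therefore carried the NASH diet, no chow-fed liver was compared, and none of these livers is labelled as coming from a mouse treated with imiquimod. The labels do not say whether a library came from 1 animal or from a pool, so p-values measure the spread between these libraries only.

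Colony-stimulating factors are secreted proteins that keep myeloid cells alive and drive their division and maturation. Macrophage colony-stimulating factor (CSF1) and IL-34 both bind the receptor tyrosine kinase CSF1R, on which most tissue macrophages, Kupffer cells of the liver included, depend. Granulocyte-macrophage colony-stimulating factor (CSF2) binds a chain of its own, CSF2RA, which signals through a beta chain shared with the IL-3 and IL-5 receptors, while granulocyte colony-stimulating factor (CSF3) binds CSF3R, the main growth receptor of neutrophils. IL-10 restrains macrophage activation through IL-10RA, its specific chain, and IL-10RB, a chain shared with the receptors of IL-22 and the lambda interferons. SPI1, known as PU.1, is the transcription factor of myeloid cells under whose control several of these receptor genes stand.

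All 8 genes were higher in the 7KC group with no overlap between the groups, and none of them reached the threshold. Levels are in FPKM, fragments scaled to transcript length and to the number of mapped reads, and a log2 change is the 7KC mean minus the control mean of log2(FPKM + 0.5). The log2 changes ran from 0.53 (Il10rb) to 1.61 (Csf2rb), with a median of 1.17 against -0.03 over all tested genes. With limma and Benjamini-Hochberg adjustment over all 12299 genes, 0 of the 8 had an adjusted p under 0.05 (range 0.0548 to 0.329), where 59 of all tested genes (0.480%) were called higher and 3 lower. At an unadjusted p under 0.05, 7 of the 8 were higher, with Il10rb the exception, against 12.0% of all tested genes. The lower 7KC library exceeded the higher control library for 8 of 8 genes, against 25.1% of all tested genes. The reverse, both 7KC libraries below both control libraries, was found for 27.4% of all tested genes. A log2 change of at least 1 without overlap was found for 5 of the 8 (Csf2ra, Csf2rb, Csf3r, Spi1 and Il10ra), against 4.08% of all tested genes. With 2 libraries a group, an exact 2-sided permutation test of a single gene cannot go below p = 0.333. Calls were therefore taken from the fit that shares the spread across genes.

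The absence of calls depended on how the values were scaled. After rescaling of the libraries to 1 common FPKM sum, which is TPM, 5 of the 8 passed the threshold with limma, at adjusted p values of 0.0388 for Csf1, 0.0468 for Csf2ra, 0.0329 for Csf2rb, 0.0463 for Spi1 and 0.0491 for Il10ra. Under that scaling 398 of all 12330 tested genes (3.23%) were called higher. It also moved the median log2 change of all genes from -0.03 to 0.16, and the share of all genes with both 7KC libraries above both control libraries from 25.1% to 46.6%. The median change of the 8 genes minus that of all genes was 1.20 before and 1.21 after rescaling. Without control replicate 1, 4 of the 8 passed, namely Csf2ra (adjusted p = 0.0390), Csf2rb (0.0287), Csf3r (0.0384) and Spi1 (0.0175), and so did 404 of all 12366 tested genes (3.27%) in the higher direction.

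**Figure D1:**
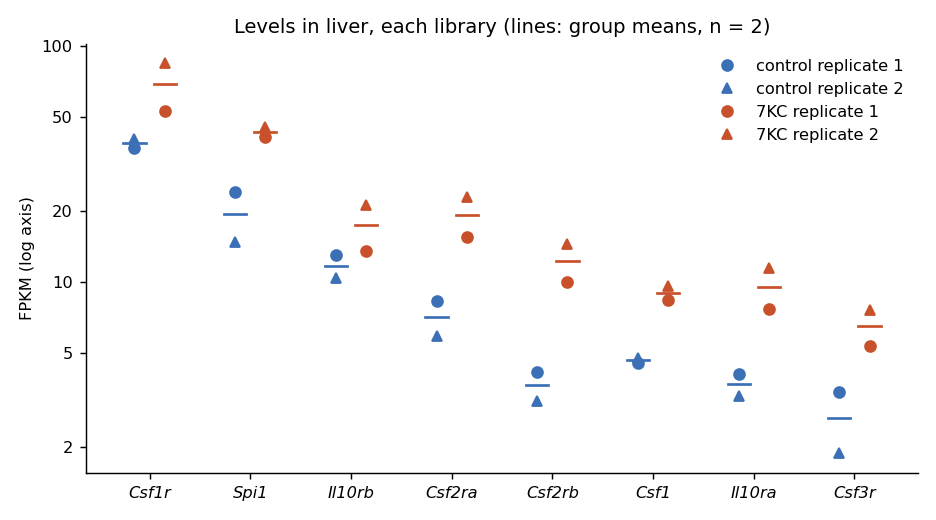
Level of each gene in each library, in FPKM on a logarithmic axis, with 1 point a library and a line at the group mean (n = 2 a group). Both 7KC libraries sit above both control libraries for all 8 genes, most narrowly for Il10rb, where 13.5 FPKM in 7KC replicate 1 follows 12.9 FPKM in control replicate 1.

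The livers were sequenced to similar depth and differed in their cell markers. The files hold no read counts, but the steps between low FPKM values of genes with 1 transcript placed the libraries at about 17200000 and 13800000 reads in control and 13600000 and 13800000 in 7KC (71.4% to 73.2% of low values came out whole within 0.1 of a read, where chance gives 20%). From these depths and the longest annotated transcript, the 8 genes rested on about 85 (Csf3r in control replicate 2) to about 5207 reads (Csf1r in 7KC replicate 2), which sets counting errors of 2.00% to 10.9% at the lowest library of each gene. The FPKM sums were 685028 and 671235 in control and 619828 and 557138 in 7KC, and the 10 most abundant genes took 17.9% to 23.0% of them. All 8 hepatocyte markers were detected, so the tissue matched its label. None of the marker genes of any cell type named here passed the threshold.

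Csf1 encodes the ligand of CSF1R. It measured 4.54 and 4.73 FPKM in control and 8.38 and 9.56 FPKM in 7KC. The groups were well apart and each was tight, with means of 4.64 ± 0.138 and 8.97 ± 0.835 FPKM (SD, n = 2), a 1.93-fold higher level. The log2 change was 0.88 (SE 0.126, 95% interval 0.56 to 1.20), with a limma adjusted p of 0.0596. Csf1 (ENSMUSG00000014599.10) lies on the minus strand at chr3:107741048-107760469 of GRCm38, the assembly also called mm10. Il34, the other ligand of CSF1R, measured 2.50 and 3.51 FPKM in control and 1.85 and 3.40 FPKM in 7KC, so its groups overlapped (log2 change -0.20, SE 0.291, limma adjusted p = 0.759). The ratio of Csf1 to Il34 was 1.81 and 1.35 in control and 4.53 and 2.81 in 7KC. It was higher in both 7KC libraries, and such a ratio within a library does not depend on the library's scaling.

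Csf1r, the receptor tyrosine kinase, was the most abundant of the 8 genes in both groups. It measured 36.8 and 40.4 FPKM in control and 52.9 and 84.1 FPKM in 7KC. The groups did not overlap, but 7KC replicate 2 was 1.59 times as high as replicate 1, the widest gap of the 8 genes between the 7KC libraries. Its means were 38.6 ± 2.59 and 68.5 ± 22.1 FPKM (SD, n = 2), with a log2 change of 0.78 (SE 0.232, 95% interval 0.20 to 1.37) and a limma adjusted p of 0.190. The change was 0.45 without 7KC replicate 2 and 1.12 without 7KC replicate 1. Csf1r (ENSMUSG00000024621.16) lies on the plus strand at chr18:61100598-61132149. The ratio of receptor to ligand, Csf1r to Csf1, was 8.10 and 8.54 in control and 6.32 and 8.80 in 7KC, so it overlapped between the groups. Flt3 and Kit, the receptors most related to CSF1R, measured 1.08 and 0.438 FPKM (Flt3) and 2.25 and 1.91 FPKM (Kit) in control. In 7KC they measured 1.03 and 1.13 FPKM (Flt3, log2 change 0.38, or 0.00 without control replicate 2, limma adjusted p = 0.540) and 2.37 and 3.01 FPKM (Kit, 0.30, or 0.16 without 7KC replicate 2, limma adjusted p = 0.417), and the libraries of Flt3 overlapped between groups.

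Downstream of CSF1R stand adaptors, Src-family and Syk kinases, PI3-kinase subunits and docking proteins. Of 16 such genes tested, 0 passed the threshold, 15 were higher in both 7KC libraries and 12 had an unadjusted p under 0.05, with a median log2 change of 0.96. Over all tested genes, 25.1% were higher in both 7KC libraries and 12.0% were higher at an unadjusted p under 0.05 with limma. Fgr, a Src-family kinase of myeloid cells, measured 3.18 and 2.53 FPKM in control and 7.55 and 9.61 FPKM in 7KC (log2 change 1.43, SE 0.177, limma adjusted p = 0.0512). Dok1, a docking protein that dampens tyrosine kinase signals, measured 2.29 and 2.67 FPKM in control and 5.69 and 7.32 FPKM in 7KC (1.23, SE 0.169, limma adjusted p = 0.0548). The groups of both genes were far apart, just short of the threshold. The 16th gene, whose groups overlapped, was the PI3-kinase regulatory subunit Pik3r1 at 9.25 and 14.0 FPKM in control and 12.1 and 9.57 FPKM in 7KC, and it is named here after its values were seen.

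The GM-CSF receptor chains showed the largest changes of the 8 genes. Csf2ra, the chain that binds GM-CSF, measured 8.29 and 5.89 FPKM in control and 15.5 and 23.0 FPKM in 7KC. Both 7KC libraries were well above both control libraries, with means of 7.09 ± 1.70 and 19.2 ± 5.27 FPKM (SD, n = 2), a 2.71-fold higher level. The log2 change was 1.37 (SE 0.245, 95% interval 0.75 to 1.99; limma adjusted p = 0.0767). Csf2ra (ENSMUSG00000059326.7) lies on the minus strand at chr19:61223957-61228429.

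Csf2rb, the signaling beta chain, measured 4.13 and 3.12 FPKM in control and 10.01 and 14.4 FPKM in 7KC. Even the lower 7KC library was 2.42 times the higher control library, the widest separation of the 8. The means were 3.63 ± 0.714 and 12.2 ± 3.11 FPKM (SD, n = 2), a 3.36-fold higher level, and the log2 change was 1.61 (SE 0.220, 95% interval 1.05 to 2.17; limma adjusted p = 0.0548). A larger log2 change was found for 0.748% of all tested genes. Csf2rb (ENSMUSG00000071713.6) lies on the plus strand at chr15:78325752-78353847.

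Mice carry a second beta chain gene, Csf2rb2, whose product serves the IL-3 receptor and which lies beside Csf2rb on the minus strand at chr15:78282507-78305721. It measured 2.30 and 1.27 FPKM in control and 5.04 and 8.63 FPKM in 7KC (log2 change 1.68, SE 0.327, limma adjusted p = 0.0934). The sequences are close enough for reads to fit both genes: 518 of the 4826 windows of 75 bases, the length of the reads, in the longest Csf2rb transcript also occur in Csf2rb2 (10.7%), and 15.8% of the windows within its coding sequence. The longest identical run in the coding sequences is 242 bases. A stretch of 60 coding bases from GENCODE M21 is shown because it holds what a read there has to tell the genes apart, the 2 bases in capitals:
Csf2rb: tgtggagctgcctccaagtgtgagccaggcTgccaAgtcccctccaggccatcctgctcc
Csf2rb2: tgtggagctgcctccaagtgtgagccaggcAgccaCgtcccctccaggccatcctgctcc
How the authors' counting split such reads is not stated, so the separate values of Csf2rb and Csf2rb2 are uncertain. Summed, the pair had a log2 change of 1.72 and a limma adjusted p of 0.0618, so the direction did not rest on the split. None of the other 7 genes shared a window of that length with another of the 8 or with Csf2rb2.

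Both chains were higher in 7KC, the beta chain by slightly more. The ratio of Csf2ra to Csf2rb was 2.00 and 1.88 in control and 1.55 and 1.59 in 7KC, 0.808 times as high on average and lower in both 7KC libraries, with no test of that difference. Csf2 itself, the GM-CSF gene, was listed at 0 in control replicate 1 and 7KC replicate 1 and at 0.0877 and 0.263 FPKM in the others, too little to test. Il3 and Il5, the other ligands that signal through the beta chain, were listed at 0 in all 4 libraries. Il3ra, the IL-3 binding chain, measured 4.32 and 5.24 FPKM in control and 6.75 and 8.90 FPKM in 7KC (log2 change 0.65, SE 0.179, limma adjusted p = 0.166), with no overlap. Il5ra was at most 0.0434 FPKM in any library and was not tested.

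**Figure D2:**
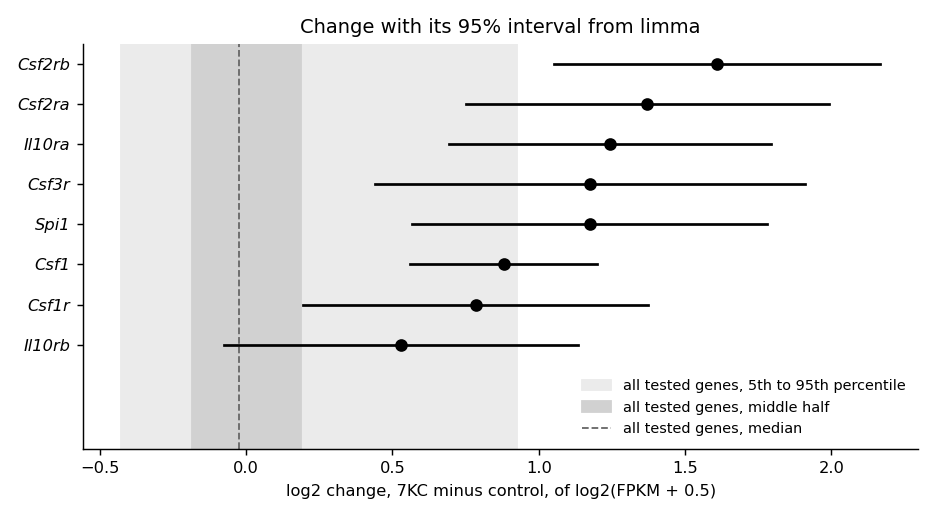
Log2 change of each of the 8 genes (7KC minus control, points) with the 95% interval from limma (lines), over the spread of all tested genes (shaded) and their median (dashed). The intervals of 7 genes lie above 0, and that of Il10rb runs from -0.08 to 1.13.

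Csf3r, the G-CSF receptor of neutrophils and some monocytes, was the least abundant of the 8. It measured 3.40 and 1.87 FPKM in control and 5.35 and 7.57 FPKM in 7KC. The groups did not overlap, although the control libraries differed 1.82-fold. Its means were 2.64 ± 1.08 and 6.46 ± 1.57 FPKM (SD, n = 2), with a log2 change of 1.18 (SE 0.290, 95% interval 0.44 to 1.91) and a limma adjusted p of 0.135. Csf3r (ENSMUSG00000028859.14) lies on the plus strand at chr4:126024550-126044440. Csf3, its ligand, was listed at 0 in all 4 libraries.

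Neutrophil markers did not share a direction. Of 10 listed markers, 4 were expressed highly enough to test, and 0 passed the threshold. In both 7KC libraries 1 was higher and 1 lower, against 25.1% and 27.4% of all tested genes. S100a9, an abundant neutrophil and monocyte protein, measured 11.5 and 7.97 FPKM in control and 14.2 and 13.6 FPKM in 7KC (log2 change 0.51, or 0.26 without control replicate 2, limma adjusted p = 0.257), and Camp, a granule peptide, 1.05 and 0.934 FPKM in control and 0.565 and 0.748 FPKM in 7KC (-0.37, limma adjusted p = 0.380). The summed level of the list was 33.4 and 19.1 FPKM in control and 35.8 and 36.6 FPKM in 7KC. The part of neutrophil number in the level of Csf3r was not tested.

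Spi1 was the second most abundant of the 8 genes. It measured 24.1 and 14.7 FPKM in control and 41.2 and 45.1 FPKM in 7KC. The 7KC libraries lay close together and the control libraries further apart, with means of 19.4 ± 6.62 and 43.1 ± 2.79 FPKM (SD, n = 2). The log2 change was 1.17 (SE 0.240, 95% interval 0.57 to 1.78; limma adjusted p = 0.0987). Spi1 (ENSMUSG00000002111.8) lies on the plus strand at chr2:91082390-91115756. The ratio of Spi1 to Csf1r, 0.655 and 0.364 in control and 0.778 and 0.536 in 7KC, overlapped between the groups.

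Over all tested genes, 0.480% were called higher, and 25.1% were higher and 27.4% lower in both 7KC libraries. Among 18 tested genes for other transcription factors of myeloid cells, 1 rose, 8 were higher and 1 lower in both 7KC libraries, and the median log2 change was 0.29. The riser was Irf8, a partner of PU.1 in monocytes and dendritic cells, at 10.6 and 8.16 FPKM in control and 26.8 and 26.2 FPKM in 7KC (log2 change 1.46, SE 0.150, limma adjusted p = 0.0369). The lower one was Cebpa, a factor of hepatocytes as well as myeloid cells, at 183 and 244 FPKM in control and 179 and 130 FPKM in 7KC (limma adjusted p = 0.342), named after its values were seen. Of 14 tested genes described as PU.1 targets, 1 rose, 13 were higher in both 7KC libraries and the median was 1.18. That riser was Ncf1, a cytosolic subunit of the phagocyte NADPH oxidase, at 8.50 and 7.36 FPKM in control and 19.9 and 23.4 FPKM in 7KC (1.39, SE 0.140, limma adjusted p = 0.0347). Neither call held without control replicate 2 (limma adjusted p = 0.0543 for Irf8 and 0.0706 for Ncf1), without 7KC replicate 1 (0.154 and 0.146) or without 7KC replicate 2 (0.263 and 0.234).

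RefSeq promoters on GRCm38.p6, from 250 bases before the start to 50 after it, were matched for 3 of the 8 genes (Csf1, Csf2ra and Csf3r). They were searched on both strands for GAGGAA, the core of PU.1 sites, and for the STAT pattern TTCNNNGAA, the C/EBP pattern TTNNGCAA and TATAAA, the TATA box. The first of these stands in the windows of Csf2ra and Csf3r, which are shown in transcript direction because both receptor genes were higher with no overlap, with GAGGAA in capitals:
Csf2ra promoter, minus strand, chr19:61228369-61228668: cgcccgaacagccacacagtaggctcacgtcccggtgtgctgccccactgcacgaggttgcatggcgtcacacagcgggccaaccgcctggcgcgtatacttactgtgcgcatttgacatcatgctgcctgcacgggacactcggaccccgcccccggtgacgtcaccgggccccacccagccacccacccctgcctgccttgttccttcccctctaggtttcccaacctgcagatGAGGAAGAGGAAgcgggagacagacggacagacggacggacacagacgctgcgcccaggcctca
Csf3r promoter, plus strand, chr4:126024409-126024708: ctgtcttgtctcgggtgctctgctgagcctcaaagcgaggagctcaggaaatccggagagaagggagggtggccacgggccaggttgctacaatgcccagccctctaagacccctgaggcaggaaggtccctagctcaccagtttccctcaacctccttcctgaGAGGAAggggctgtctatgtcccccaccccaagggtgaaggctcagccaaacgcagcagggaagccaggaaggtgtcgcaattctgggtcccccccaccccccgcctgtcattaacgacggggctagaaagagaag
Csf2ra holds 2 adjoining copies, beginning 14 and 8 bases before the start, and Csf3r holds 1, beginning 86 bases before it. The window of Csf1 holds none, and none of the 3 windows holds the other patterns. GAGGAA occurs in 28.3% of the 32851 RefSeq promoters of this length, TTCNNNGAA in 8.30%, TTNNGCAA in 10.8% and TATAAA in 13.6%, so a match is a description of the letters only.

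The IL-10 receptor chains differed from each other. Il10ra, the chain specific to IL-10, measured 4.08 and 3.29 FPKM in control and 7.68 and 11.4 FPKM in 7KC. The groups were well apart, with means of 3.68 ± 0.561 and 9.53 ± 2.61 FPKM (SD, n = 2), a 2.59-fold higher level. The log2 change was 1.24 (SE 0.218, 95% interval 0.69 to 1.79; limma adjusted p = 0.0742). Il10ra (ENSMUSG00000032089.16) lies on the minus strand at chr9:45253837-45269149. Il10rb, the shared chain, measured 12.9 and 10.4 FPKM in control and 13.5 and 21.1 FPKM in 7KC. Its groups nearly met, with 7KC replicate 1 only 1.05 times control replicate 1. Its means were 11.6 ± 1.81 and 17.3 ± 5.40 FPKM (SD, n = 2), with a log2 change of 0.53 (SE 0.239, 95% interval -0.08 to 1.13) and a limma adjusted p of 0.329. Without 7KC replicate 2 its change was 0.21, and without 7KC replicate 1 it was 0.84. Il10rb (ENSMUSG00000022969.13) lies on the plus strand at chr16:91406164-91425834.

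The ratio of Il10ra to Il10rb was nearly the same within each group and apart between them. It was 0.316 and 0.317 in control and 0.569 and 0.538 in 7KC, 1.75 times as high on average. Il10, the ligand, stayed near the detection limit at 0.159 and 0.0658 FPKM in control and 0.133 and 0.263 FPKM in 7KC and was not tested. Il22, Il19, Il20 and Il24, the related cytokines, were listed at 0 in all 4 libraries. Il22ra1, the chain that joins IL-10RB in the IL-22 receptor of hepatocytes, measured 2.14 and 1.72 FPKM in control and 1.39 and 2.55 FPKM in 7KC, with overlap (log2 change -0.01, limma adjusted p = 0.989; 0.16 with the values rescaled to TPM). Ifnlr1, the lambda interferon chain, measured 0.213 and 0.0378 FPKM in control and 0.191 and 0.303 FPKM in 7KC. Il20rb reached at most 0.384 FPKM, Il20ra 0.0767 FPKM and Il22ra2 0.0319 FPKM. None of these last 4 was tested.

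Genes known to respond to IL-10 were mostly higher in 7KC, by less than the 8 genes at the median and with some lower. Of 11 tested, 0 passed the threshold, and the median log2 change was 0.30. In both 7KC libraries 8 were higher and 2 lower, against 25.1% and 27.4% of all tested genes. Il1rn, the IL-1 receptor antagonist, measured 7.55 and 5.81 FPKM in control and 13.9 and 14.1 FPKM in 7KC (log2 change 1.03, SE 0.152, limma adjusted p = 0.0605), and Tnip3, an inhibitor of NF-kappa-B signaling, 0.261 and 0.141 FPKM in control and 0.978 and 0.849 FPKM in 7KC (1.02, SE 0.217, limma adjusted p = 0.106). Tnip3, counted among the 8 higher genes, passed the filter only through its 7KC values. Its control values lie below the added 0.5 FPKM. Its change was 0.67 with a pseudocount of 1 FPKM and 1.78 with 0.1 FPKM, so its size is uncertain. The lower genes, named after their values were seen, were Zfp36, which speeds the decay of cytokine mRNAs, at 94.8 and 92.7 FPKM in control and 77.3 and 69.3 FPKM in 7KC, and Cd163, the hemoglobin scavenger receptor of macrophages, at 3.19 and 4.28 FPKM in control and 2.72 and 2.89 FPKM in 7KC.

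**Figure D3:**
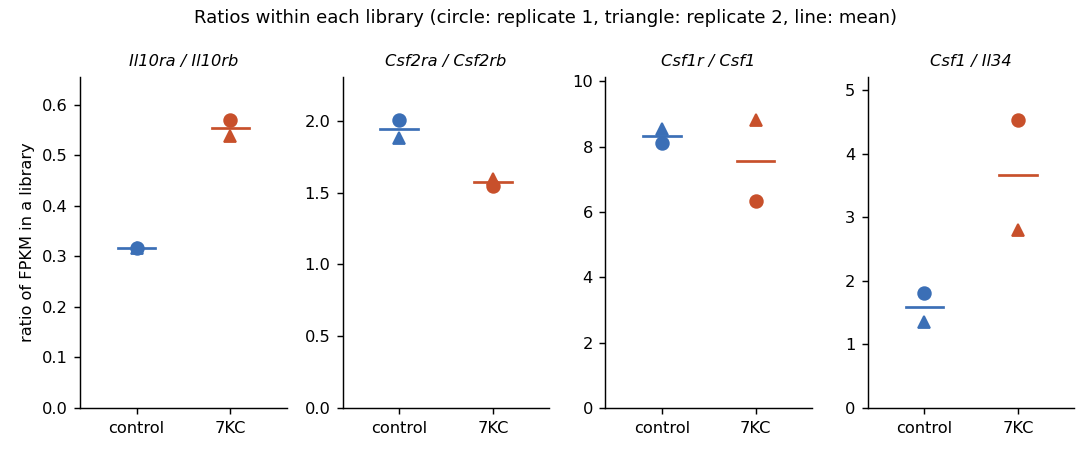
Ratios of FPKM between paired genes in each library, with 1 point a library and a line at the group mean, on linear axes that start at 0. Il10ra to Il10rb and Csf1 to Il34 are higher, and Csf2ra to Csf2rb lower, in both 7KC libraries than in both control libraries, while Csf1r to Csf1 overlaps between the groups.

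The cytokine receptors signal through JAK kinases and STAT factors. Of 13 such genes described here, all tested, 0 passed the threshold, and the median log2 change was 0.24. In both 7KC libraries 7 were higher and 0 lower, against 25.1% and 27.4% of all tested genes. Ptpn6, the phosphatase SHP-1 that damps receptor signals in blood cells, measured 22.6 and 18.3 FPKM in control and 39.3 and 43.0 FPKM in 7KC (log2 change 0.999, SE 0.142, limma adjusted p = 0.0588; 0.0298 without control replicate 1). Pim1, a kinase gene induced by STAT factors, measured 10.2 and 8.21 FPKM in control and 15.86 and 14.997 FPKM in 7KC (0.72, SE 0.141, limma adjusted p = 0.0934). The groups of both genes were apart. Stat3, which carries the IL-10 signal, measured 40.5 and 35.2 FPKM in control and 41.3 and 39.2 FPKM in 7KC, and Stat5a and Stat5b, which carry GM-CSF signals, 3.26 and 2.99 FPKM and 13.4 and 19.3 FPKM in control against 3.27 and 4.37 FPKM and 14.2 and 14.1 FPKM in 7KC. Among these, Stat5a was higher in both 7KC libraries by little while Stat3 and Stat5b overlapped, and all 3 are named after their values were seen. The ligands, partner receptors, relays, responses, transcription factors and PU.1 targets, without the 8 genes, are together called the pathway genes. Of these 95 genes 77 were tested, 2 rose (Irf8 and Ncf1) and 0 fell, where 0.480% of all tested genes were called higher. In both 7KC libraries 53 were higher and 3 lower, against 25.1% and 27.4% of all tested genes. The median log2 change was 0.60.

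**Figure D4:**
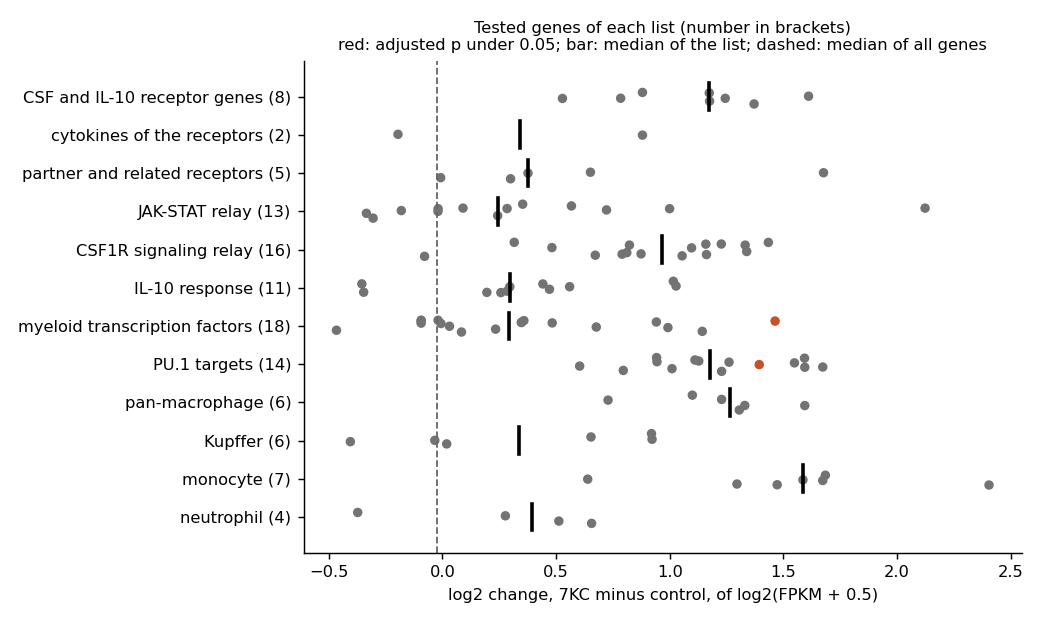
Log2 change of every tested gene in each list, 1 point a gene, with the list median (bar), the median of all tested genes (dashed) and genes past the threshold in red. The medians of the 8 genes (1.17), the PU.1 targets (1.18) and the pan-macrophage markers (1.27) lie close together. Those of the Kupffer cell markers (0.34) and the IL-10 response (0.30) lie lower. Some lists share genes, so their medians are not independent. Cd68 and Lyz2 are both PU.1 targets and pan-macrophage markers, and Itgam is both a PU.1 target and a monocyte marker. Csf1 is both 1 of the 8 genes and a cytokine of the receptors, and Socs3 is in both the JAK-STAT relay and the IL-10 response.

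Markers of macrophages and monocytes were mostly higher in 7KC as well, and those of Kupffer cells were mixed. In whole liver, more or fewer cells of a type cannot be told apart from more or less RNA per cell. Over all tested genes, 25.1% were higher and 27.4% lower in both 7KC libraries. Of 6 pan-macrophage markers, 5 were higher in both 7KC libraries, with a median log2 change of 1.27 and a summed level of 826 and 583 FPKM in control and 1525 and 2372 FPKM in 7KC. Aif1, a macrophage actin-binding protein, measured 22.0 and 16.9 FPKM in control and 46.5 and 52.0 FPKM in 7KC (limma adjusted p = 0.0512), and Mpeg1, a macrophage pore-forming protein, 57.3 and 68.8 FPKM in control and 120 and 153 FPKM in 7KC (limma adjusted p = 0.0619). Of 7 monocyte markers, 6 were higher, with a median of 1.59 and sums of 81.1 and 49.7 FPKM in control and 233 and 204 FPKM in 7KC. Ly6c2, which marks inflammatory monocytes, had a log2 change of 2.40 and Plac8 one of 1.68 (limma adjusted p = 0.0523 for each). Of 6 Kupffer cell markers, 3 were higher and 1 lower, with a median of 0.34 and sums of 303 and 303 FPKM in control and 349 and 522 FPKM in 7KC. Timd4 and Marco, both receptors of resident Kupffer cells, each had a change of 0.92 (limma adjusted p = 0.0606 and 0.0966). The lower one was the complement receptor gene Vsig4 (-0.41), while Clec4f (-0.03) and Folr2 (0.02) overlapped, and these 3 are named after their values were seen.

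All 9 tested T and NK cell markers were higher in both 7KC libraries (median 1.11, sums 17.4 and 11.3 FPKM in control and 41.8 and 35.3 FPKM in 7KC), Cd3e of the T-cell receptor by 1.26 and Cd4 by 1.42 (limma adjusted p = 0.0503 and 0.0512). Of 5 tested dendritic cell markers 3 were higher (median 0.38, sums 9.08 and 5.88 FPKM in control and 13.7 and 18.1 FPKM in 7KC), Clec9a by 0.97 and Itgax by 1.62 (1.03 without control replicate 2). Of 3 tested B cell markers 1 was higher (median 0.39, sums 7.03 and 2.26 FPKM in control and 6.63 and 6.47 FPKM in 7KC). It was Cd79b, by 0.86 (0.48 without control replicate 2), while Cd79a, at 0.39, overlapped, as did the sums. These 3 medians cover the tested markers only. The sums cover every listed marker, 10 for T and NK cells, 7 for dendritic cells and 5 for B cells. Of 8 hepatocyte markers 6 were lower and 0 higher (median -0.52), with sums of 66318 and 55724 FPKM in control and 47112 and 35240 FPKM in 7KC, Cps1 by -0.52 and Apoa1 by -0.68. The shares over all tested genes were 27.4% lower and 25.1% higher in both 7KC libraries.

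Markers of the other resident cells did not move as groups, where 25.1% of all tested genes were higher and 27.4% lower in both 7KC libraries. Of 6 endothelial markers 0 were higher or lower without overlap (median 0.00, Lyve1 -0.35 and Stab2 -0.29). Of 6 stellate cell markers 2 were higher and 1 lower (median 0.14, Col1a1 1.28, or 0.81 without control replicate 2, and Reln -0.46), and of 4 tested cholangiocyte markers 2 were higher and 1 lower (median 0.19, Spp1 1.84 and Sox9 0.33, or 0.089 without 7KC replicate 2). The part of cell numbers in the levels of the 8 genes was not tested.

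The 8 genes were also set against the pan-macrophage markers of the same library. This subtracts 1 value from the change of every gene and so keeps their order. The measure was a gene's log2(FPKM + 0.5) minus the mean of the 6 markers, so it does not depend on a scaling of the library other than through the pseudocount. Csf2rb alone was higher in both 7KC libraries, at -3.68 and -3.86 in control and -3.33 and -3.42 in 7KC. Csf1 was at -3.56 and -3.33 in control and -3.57 and -3.99 in 7KC, Csf1r at -0.67 and -0.37 in control and -0.98 and -0.92 in 7KC, and Il10rb at -2.15 and -2.28 in control and -2.91 and -2.88 in 7KC. These 3 were lower in both 7KC libraries, by -0.33, -0.43 and -0.69 on average. Csf2ra, Csf3r, Spi1 and Il10ra overlapped between the groups, with mean differences of 0.16, -0.04, -0.04 and 0.03. Set against the Kupffer cell markers, 7 of the 8 genes were higher in both 7KC libraries, by 0.44 (Csf1r) to 1.26 (Csf2rb), and Il10rb overlapped (0.18). Set against the 7 monocyte markers, none of the 8 was higher in both 7KC libraries, and Csf1, Csf1r, Csf3r, Spi1 and Il10rb were lower in both, by -0.36 (Csf3r and Spi1) to -1.01 (Il10rb). Csf2ra, Csf2rb and Il10ra overlapped there, with mean differences of -0.17, 0.07 and -0.29. The direction thus depended on the marker list, and none of these differences was tested.

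**Figure D5:**
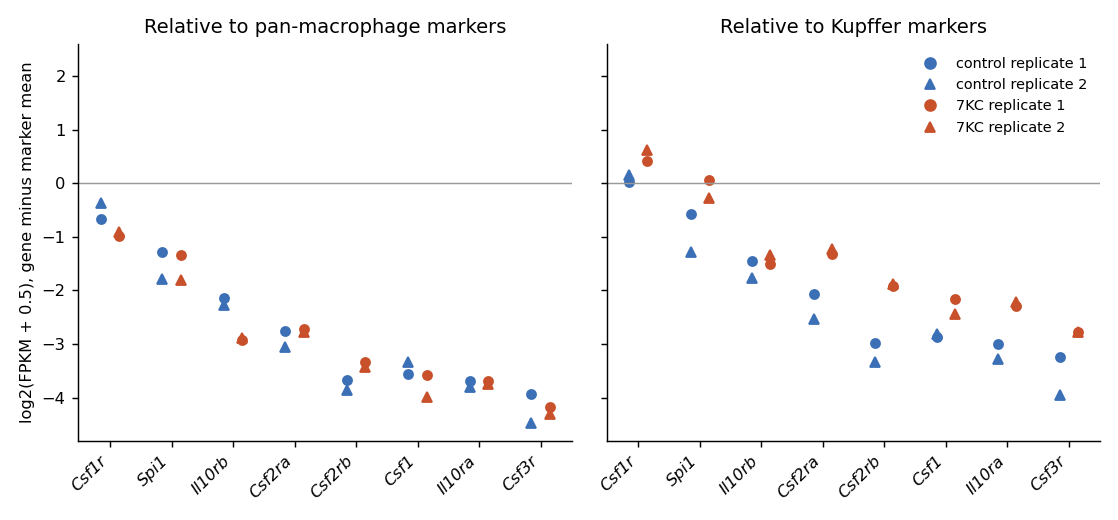
Level of each gene relative to the mean of 6 pan-macrophage markers (left) or 6 Kupffer cell markers (right) of the same library, in log2 units, with 1 point a library. Relative to pan-macrophage markers Csf2rb is higher and Csf1, Csf1r and Il10rb lower in both 7KC libraries, and relative to Kupffer cell markers every gene but Il10rb is higher in both.

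By level in FPKM, which is per length, the order in control was Csf1r, Spi1, Il10rb, Csf2ra, Csf1, Il10ra, Csf2rb and Csf3r. Neighbours in that order had separate ranges down to Il10ra, whereas Il10ra, Csf2rb and Csf3r overlapped. In 7KC the order was Csf1r, Spi1, Csf2ra, Il10rb, Csf2rb, Il10ra, Csf1 and Csf3r, and every pair of neighbours from Csf2ra to Csf1 overlapped. Csf1 stood at rank 5 in control and 7 in 7KC, and Csf2ra at rank 4 and 3. Csf1r stood above 85.7% of all tested genes in control and above 91.3% in 7KC, and Csf3r above 27.3% and 48.2%.

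The libraries within a group differed in the same sense for most of the 8 genes. 7KC replicate 2 was above 7KC replicate 1 for all 8, by 1.10 (Spi1) to 1.59 times (Csf1r), and control replicate 1 was above control replicate 2 for 6, the exceptions being Csf1 and Csf1r. The 8 values of a library are thus not separate pieces of evidence. The pan-macrophage sum had the same order, highest in 7KC replicate 2 and lowest in control replicate 2.

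The likeness of profiles was measured as the Euclidean distance over the 4 libraries between log2(FPKM + 0.5) values centred on each gene's mean, a description over few libraries in which many genes are alike. Among the 8 genes the closest pairs were Csf2ra with Il10ra (0.18), Csf3r with Spi1 (0.24) and Csf2ra with Csf2rb (0.25), and the farthest was Csf2rb with Il10rb (1.09). Over all tested genes, the 3 nearest to Csf2rb were Emb (0.03), Itgam and Itgb2 (both 0.08), the last pair being the chains of the myeloid integrin Mac-1. Nearest to Spi1 were Ikzf1 (0.04), a lymphoid and myeloid transcription factor, S100a6 (0.07) and Foxm1 (0.08), a factor of dividing cells. Nearest to Il10ra were Laptm5 (0.04), a lysosomal protein of blood cells, Alox5ap (0.05), needed for leukotriene synthesis, and Rasa4 (0.06). Nearest to Csf2ra were Gpx2 (0.02), Gpr65 (0.05) and Abr (0.12), and nearest to Csf3r were Fam111a (0.05), Bcl2a1d (0.06) and Tacc3 (0.07). Nearest to Csf1 were Spon2 (0.04), Agtrap (0.05) and the interferon-inducible Ifi204 (0.06), and nearest to Csf1r were Id1 (0.04), Oas1g (0.10) and Tm6sf1 (0.11). Nearest to Il10rb were Htra1 (0.03), Ano6 (0.05) and Crat (0.07). From 21 genes (Csf2rb) to 201 genes (Il10rb) lay within 0.25 of a given profile. In control, Gpx2 measured 0.407 and 0.168 FPKM, Foxm1 0.488 and 0.104 FPKM and Oas1g 0.420 and 0.480 FPKM. These values lie below the added 0.5 FPKM, which damps the changes, so the distances of these genes partly reflect the pseudocount.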

How the data were processed

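Whole-liver RNA of 4 mouse libraries, 2 a group, was sequenced from stranded mRNA libraries in single-end reads of 75 bases. The deposited values are FPKM per gene, made by the authors. The submitters' processing notes name mm10, TopHat2 2.1.1, Bowtie2 2.2.8, SAMtools 0.1.18 and Cuffdiff 2.2.1, while the study's methods give other versions. Groups came from the sample titles.

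Genes averaging 0.5 FPKM or more across the libraries (12299 of 24346) were tested on log2(FPKM + 0.5) with limma 3.58.1 in R 4.3.3 (variance trend, group as the only term), with p-values adjusted by Benjamini-Hochberg over all tested genes and a threshold of 0.05. FPKM are not counts, so no count model was used. The fit was run on simulated data in which each gene varied independently, so that run does not cover shifts that the genes of a library share. Alternatives were other pseudocounts, filters and scalings, a fit without the variance trend, a replicate block and leaving out each library. The 8 genes, the 18 other gene lists and the tests were chosen with earlier results of these data known. Named are the 8 genes, in each list every gene past the threshold or else the 2 with the smallest p, all cytokines and partner receptors, and the 3 genes nearest in profile to each of the 8. 1 gene of the lists is not reported here. Others are said to be named after their values were seen. Coordinates and transcripts are from GENCODE M21, promoters from RefSeq.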

Additional observations from a re-analysis of the deposited data

How the results depend on the processing

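Over all alternatives, each of the 119 log2 changes obtained for the 8 genes was above 0, 110 kept their side of the threshold and 9 passed it newly, not counting the crossed pairing below. Csf3r gave no value at a mean of at least 5 FPKM. The number of the 8 genes called was 0 except for 5 after rescaling to TPM, 4 without control replicate 1 (0 to 4 over single libraries left out) and 6 under the crossed pairing. Over all tested genes, the 59 higher calls became 111 with a pseudocount of 1 FPKM, 0 with no filter, 398 under TPM and 39 with no variance trend. The 3 lower calls became 1 with no filter, 7 under TPM and 1 with no variance trend. The 2 higher calls among the pathway genes became 0 with no filter, 16 under TPM and 0 with no variance trend. Leaving out 1 library at a time gave 2 to 404 higher and 1 to 54 lower calls over all genes and 0 to 15 among the pathway genes; a lone library was then assumed to vary like the other group. Irf8 and Ncf1 lost their calls with no filter (limma adjusted p = 0.120 each), with the replicate block (0.151 and 0.174) and with no variance trend (0.0603 each).

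Directions reversed for genes that were not called: Il22ra1 under TPM (0.16), and over libraries left out Il22ra1 (-0.35 to 0.34), Il34 (-0.56 to 0.17), Cd79a (-0.26 to 1.04), Stab2 (-0.70 to 0.12) and Lyve1 (-0.71 to 0.019).

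The replicate numbers are not labelled as a pairing, and deviations of libraries with the same number had a correlation of -0.14. A replicate block left 0 higher and 0 lower calls over all genes and 0 among the pathway genes. The crossed pairing, chosen after seeing the data, gave 551 higher calls (4.48% of all tested genes) and 37 lower calls over all genes. It gave 6 among the 8 genes and 26 among the pathway genes.

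The limits are the 2 libraries a group, the unknown number of animals behind each, and bulk tissue, in which cell numbers are not measured. Of the ligands, only Csf1 and Il34 were expressed highly enough to test, and differences in the other cytokines were not detectable at this depth.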
